A study of Mus musculus with 12 samples.

Results

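C/D box small nucleolar RNAs (snoRNAs) were followed across 4 fibroblast populations sorted from neonatal mouse back skin. Every gene whose symbol begins with Snord and a number was taken if the array carried a probe set naming that gene alone, which gave 47 genes of the 22180 measured. All 47 had 1 such probe set, so none was chosen among several. A further 18 Snord symbols occurred only on probe sets that name several genes and were not analysed here. Of the 33 probe sets of that kind with a Snord symbol, 16 were shared by copies of the Snord116 type. The genes lie on 16 chromosomes and are 48 to 221 bases long in the mouse annotation (GRCm38.p6, the same assembly as mm10).

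A C/D box snoRNA pairs with ribosomal RNA or another small RNA and guides a protein complex to add a methyl group to a ribose of the target, and a few members serve instead in cutting the ribosomal RNA precursor. Most are not transcribed from a promoter of their own but are cut from an intron of a host gene after splicing, so that 1 primary transcript can give both a messenger RNA and a snoRNA. Hosts are often genes for ribosomal proteins, translation factors and nucleolar proteins, or long noncoding RNAs whose spliced product has little known use.

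The cells came from mice at postnatal day 2 that the labels call wild-type, and the labels name no treatment. The study describes Pdgfra reporter mice, carrying GFP, and the sorting of their GFP+ cells. CD26+ cells are its papillary fibroblasts, Dlk1+Sca1- cells its reticular fibroblasts, and Dlk1+Sca1+ and Dlk1-Sca1+ cells its pre-adipocytes. There were 3 arrays per population, called biological replicates in the labels, and p-values measure the spread between these arrays. Replicate 3 of Dlk1-Sca1+ was left out of the fits because it met the description of a sample the study excluded, with Dlk1 at 8.69 against 8.09 and 8.32 on the other 2 arrays, so 11 of 12 arrays were fitted. All 8 fibroblast markers looked up, among them Col1a1, Dcn and Pdgfra, stood at percentile 92.3 or higher among all genes. Dlk1 followed the sort on the fitted arrays, and Dpp4, which encodes CD26, had means of 10.30 in CD26+ (n = 3), 10.05 in Dlk1-Sca1+ (n = 2), 9.22 in Dlk1+Sca1+ (n = 3) and 8.47 in Dlk1+Sca1- (n = 3). All 6 pairwise comparisons were tested with limma, a moderated linear model fitted over all genes, and a gene was called at a Benjamini-Hochberg adjusted p of 0.05. Levels are deposited log2 values, so a difference of 1 is a doubling, and levels of different probe sets are not comparable.

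Of the 47 genes, 43 lay inside the span of another annotated gene, with predicted genes and small RNA genes left out. That gene was taken as the host, and the hosts were 35 in number because 7 of them held more than 1 member. The annotation used gives no strand, and whether a member lies in an intron was not looked up. Snord104, Snord118, Snord13 and Snord89 had no host by this rule, although Snord104 lay within the predicted gene Gm36220. A probe set for a snoRNA can also read the host's unspliced intron, so mature snoRNA and intron RNA cannot be told apart on these arrays.

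No sequence of a snoRNA was in the reference tables used, so the start regions of hosts are shown, as the place from which host and snoRNA are transcribed together. Genes of the translation apparatus often start at a run of pyrimidines, known as a terminal oligopyrimidine tract. The 4 hosts shown belong to snoRNAs whose values are described below: Rbmx for Snord61, Snhg12 for Snord99, Nop56 for Snord110, and Nop58 for Snord11 and Snord70. Each is RefSeq sequence of GRCm38.p6, 5′ to 3′ on the gene's strand, with 60 bases before the annotated start and 15 from the start onward. Capitals mark a run of 6 or more C or T bases that touched the 5 bases on either side of the start, searched on the gene's strand only.
Rbmx, chrX:57393022-57393096, minus strand: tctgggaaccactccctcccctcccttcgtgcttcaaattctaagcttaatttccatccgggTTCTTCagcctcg
Snhg12, chr4:132308618-132308692, plus strand: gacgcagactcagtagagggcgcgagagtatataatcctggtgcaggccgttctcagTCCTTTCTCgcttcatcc
Nop56, chr2:130274352-130274426, plus strand: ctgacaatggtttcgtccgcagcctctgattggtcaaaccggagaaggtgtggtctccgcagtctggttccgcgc
Nop58, chr1:59684946-59685020, plus strand: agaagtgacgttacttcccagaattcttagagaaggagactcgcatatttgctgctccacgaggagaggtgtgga
Such a run was present at 12 of the 27 hosts with a start region in the table (44.4%) and at 23.0% of all 27025 genes in it. At the start listed for each region, Rbmx had a run of 6 and Snhg12 a run of 9, and neither nucleolar protein gene had one. For Rbmx, Nop56 and Nop58 the gene's span in the annotation started at another base (57393046, 130274367 and 59684961). The Nop58 span start falls within cttccc, and no such run lies at that of Rbmx, so the presence of a run depends on the start taken. These matches describe letters at annotated starts and are not mapped transcription starts.

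Snord42b was higher in CD26+ cells than in each of the other 3 populations. Its 55 bases lie on chromosome 11 (78183059 to 78183113) within Rpl23a, which encodes a protein of the large ribosomal subunit. In CD26+ it measured 6.62, 6.40 and 6.58. In Dlk1+Sca1- it measured 5.34, 5.17 and 5.93, in Dlk1+Sca1+ 4.78, 4.95 and 4.69, and in Dlk1-Sca1+ 4.86 and 5.03, with 5.39 on the array left out. All 3 CD26+ values thus lay above all 9 others. It was the only member of which this was true on the fitted arrays, 2.13% of the 47 beside 1.81% of all genes, so the count is near the background. The means fell in the order CD26+ (6.53 ± 0.12, SD, n = 3), Dlk1+Sca1- (5.48 ± 0.40, n = 3), Dlk1-Sca1+ (4.95 ± 0.12, n = 2) and Dlk1+Sca1+ (4.81 ± 0.13, n = 3).

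In limma's fit Snord42b was higher in CD26+ than in Dlk1+Sca1- by 1.05 ± 0.19 (log2, SE, 2.07-fold, adjusted p = 0.0186). It was higher than in Dlk1+Sca1+ by 1.72 ± 0.19 (3.30-fold, adjusted p = 0.000208) and than in Dlk1-Sca1+ by 1.58 ± 0.22 (3.0-fold, adjusted p = 0.017). Among the other 3 populations no pair was called: Dlk1+Sca1+ minus Dlk1+Sca1- was -0.67 ± 0.19 with an adjusted p of 0.136, although these arrays did not overlap. The call against Dlk1+Sca1- was lost without CD26+ replicate 1 or 3 (adjusted p = 0.11 and 0.0752), without Dlk1+Sca1- replicate 1 or 2 (0.0834 and 0.0675) and when only those 2 populations were fitted (0.0797), and held in the other 7 of 11 fits without 1 more array. The call against Dlk1-Sca1+ was lost without either array of that group (0.162 and 0.0766) and without CD26+ replicate 1 (0.0732) or 3 (0.0627), whereas that against Dlk1+Sca1+ held in all 19 alternatives.

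Most keratinocyte markers were also higher on average in CD26+. All 5 measured had positive differences from Dlk1+Sca1-, with a median of 0.42, 2 with an unadjusted p below 0.05 and none called. From Dlk1+Sca1+ and Dlk1-Sca1+ 4 and 3 of the 5 had positive differences, and the lowest were -0.61 and -0.95. From Dlk1-Sca1+ 1 was lower in CD26+ and 2 were higher at an unadjusted p below 0.05 in limma's fit. Krt14, a keratin of basal keratinocytes, measured 5.57, 6.49 and 8.33 in CD26+ and 5.18, 5.30 and 5.45 in Dlk1+Sca1- (1.49 ± 0.63, adjusted p = 0.353). Snord42b was highest on CD26+ replicate 1, where the 5 markers stood on average 0.20 below their means over the arrays, against 0.49 and 0.63 above on replicates 2 and 3. The part of these cells in the Snord42b difference was not tested.

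The host Rpl23a did not show the pattern of Snord42b. Rpl23a measured 11.74, 11.59 and 11.56 in CD26+, 11.44, 11.50 and 11.73 in Dlk1+Sca1-, 11.71, 11.35 and 11.56 in Dlk1+Sca1+, and 11.70 and 11.64 in Dlk1-Sca1+. The groups overlapped throughout, and the differences of CD26+ from the other populations were 0.07 ± 0.11, 0.09 ± 0.11 and -0.04 ± 0.12 (adjusted p = 0.841, 0.797 and 0.998). Over the 12 arrays Pearson's r between Snord42b and Rpl23a was 0.24.

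The 5 genes most like Snord42b over the 12 arrays, by Pearson's r over all genes, were Pcnt (0.89), Irs4 (0.89), Myocd (0.89), Cbll1 (0.88) and Palld (0.88), and no snoRNA was among them. Myocd encodes a cofactor that turns on smooth muscle genes and Palld a protein of actin bundles. These points share 12 arrays and 4 populations, and the 5 genes were picked as the highest of 22180, so their differences between populations were not read as a result.

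**Figure D1:**
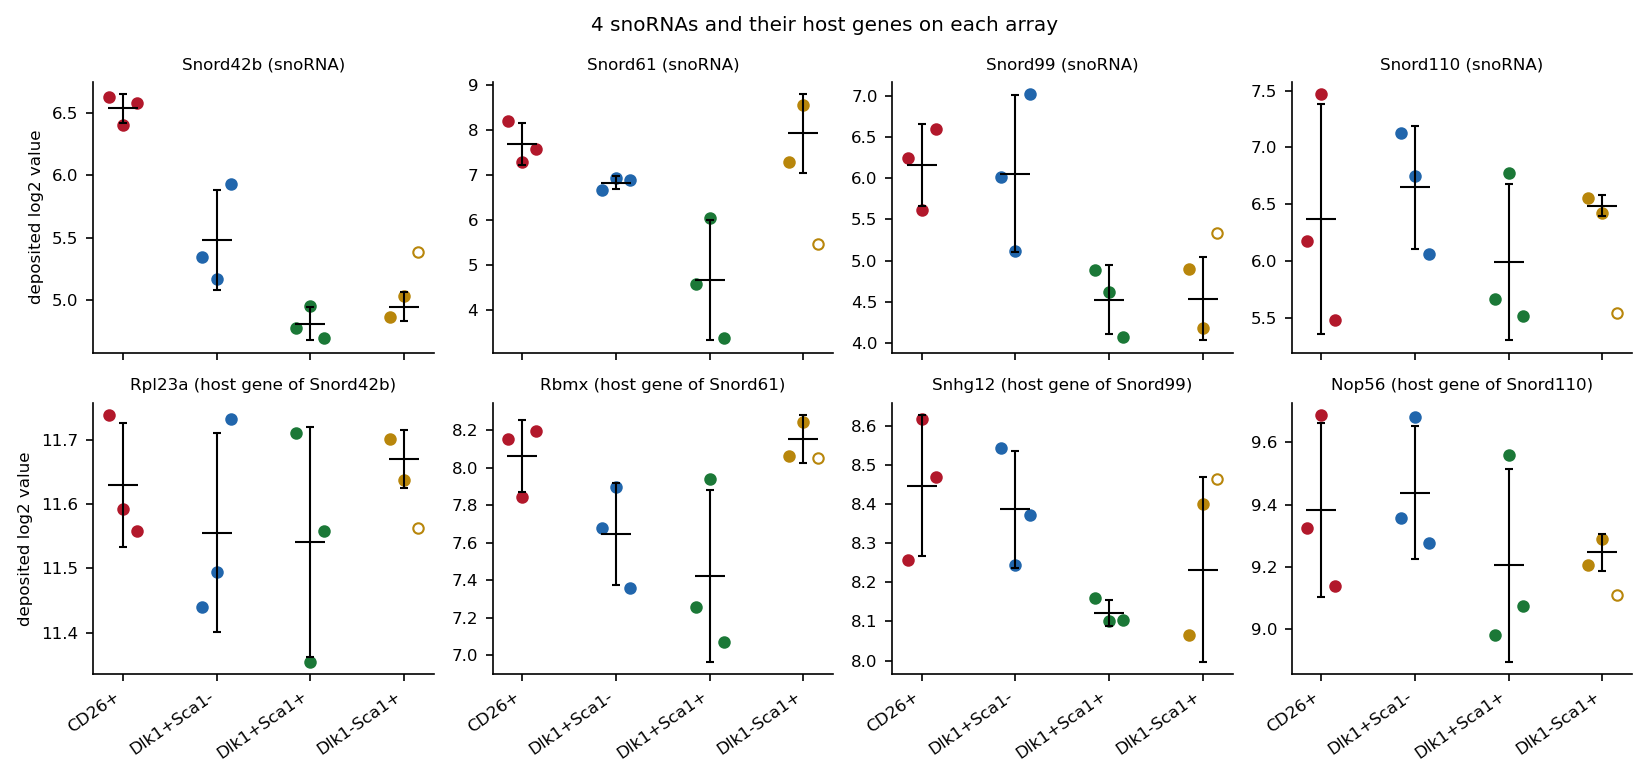
Deposited log2 values (vertical axes, each with its own range) of 4 snoRNAs in the upper row and their host genes in the lower row, by population. Points are arrays, the open point is Dlk1-Sca1+ replicate 3, left out of the fits, and bars are mean and SD of the fitted arrays. Snord42b in CD26+ stands between 6.40 and 6.62, above every other array, while Rpl23a overlaps, and Snord61 and Rbmx are lowest on the same arrays, Dlk1+Sca1+ replicates 1 and 3.

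Snord61 was low in Dlk1+Sca1+ cells. It lies on the X chromosome (57391448 to 57391509) within Rbmx, which encodes a nuclear RNA-binding protein that takes part in splicing. It measured 4.58, 6.04 and 3.38 in Dlk1+Sca1+, against 8.19, 7.30 and 7.57 in CD26+, 6.67, 6.92 and 6.90 in Dlk1+Sca1-, and 7.30 and 8.54 in Dlk1-Sca1+. Every Dlk1+Sca1+ value was below every other fitted value, but the 3 were far apart, and the Dlk1-Sca1+ array left out measured 5.47, within their range. Of the 47 members 2.13% thus had Dlk1+Sca1+ below all other fitted arrays, beside 2.0% of all genes.

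Snord61 was lower in Dlk1+Sca1+ than in CD26+ (CD26+ minus Dlk1+Sca1+ 3.02 ± 0.57, 8.11-fold, adjusted p = 0.0146). It was also lower than in Dlk1-Sca1+ (Dlk1+Sca1+ minus Dlk1-Sca1+ -3.25 ± 0.63, adjusted p = 0.0392). Against Dlk1+Sca1- the difference of -2.17 ± 0.57 was not called (adjusted p = 0.124), but was without Dlk1+Sca1+ replicate 2 (-2.86, adjusted p = 0.0106). With all 12 arrays the first difference had an adjusted p of 0.0589 and the second became -2.44 with an adjusted p of 0.263. The first was also lost without Dlk1+Sca1+ replicate 1 or CD26+ replicate 1 (0.0552 and 0.0654), and the second kept its call in 2 of 11 fits that left out 1 more array, its adjusted p reaching 0.271 without Dlk1-Sca1+ replicate 2. The sizes also moved with single arrays. Without Dlk1+Sca1+ replicate 2 the 2 differences were 3.71 and -3.94, and without replicate 3 they were 2.37 and -2.61, while the difference from Dlk1+Sca1- was -1.52 without replicate 3. Without Dlk1-Sca1+ replicate 1 or 2 the second was -3.88 or -2.63.

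Rbmx itself followed Snord61 over the arrays with a smaller range. It measured 7.26, 7.94 and 7.07 in Dlk1+Sca1+, 8.15, 7.84 and 8.20 in CD26+, 7.68, 7.90 and 7.36 in Dlk1+Sca1-, and 8.06 and 8.24 in Dlk1-Sca1+. The lowest 2 arrays of the 12 were Dlk1+Sca1+ replicates 3 and 1 for both genes. Pearson's r between snoRNA and host was 0.78 over the 12 arrays and 0.79 for the deviations from the population means. Rbmx was not called in either comparison in which Snord61 was (0.64 ± 0.22, adjusted p = 0.164, and -0.73 ± 0.25, adjusted p = 0.241), and the gap between the 2 genes' differences was not tested.

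Some markers of other cells differed in Dlk1+Sca1+. The 6 leukocyte markers, Ptprc, Cd68, Csf1r, Lyz2, C1qa and Cd3e, were all higher on average there than in Dlk1+Sca1-, 1 of them called (Csf1r, 0.91 ± 0.17, adjusted p = 0.02), with a median level of 5.88 against 4.74, and 5.05 in CD26+ and 4.97 in Dlk1-Sca1+. The 8 immediate early genes, induced within minutes by stress or growth factors, were all higher on average there than in each of the other 3 populations, with 1 of 8 called in each of these comparisons (Junb or Atf3) and medians of 10.32 against 9.84 to 9.92. Among 5 endothelial markers the angiopoietin receptor gene Tek measured 6.53, 6.30 and 7.36 in Dlk1+Sca1+, higher than in CD26+ (CD26+ minus Dlk1+Sca1+ -2.11 ± 0.25, adjusted p = 0.000372) and in Dlk1+Sca1- (1.55 ± 0.25, adjusted p = 0.00976), while the other 4 were not called. Among 6 pericyte markers the potassium channel gene Kcnj8 was higher there than in CD26+ (CD26+ minus Dlk1+Sca1+ -1.62 ± 0.37, adjusted p = 0.0324), Abcc9, the gene of its channel partner, higher than in Dlk1-Sca1+ (1.52 ± 0.34, adjusted p = 0.0484), and Mcam, an adhesion molecule gene, lower than in Dlk1+Sca1- (-0.98 ± 0.22, adjusted p = 0.0499). The endothelial and pericyte lists were mixed. In CD26+ minus Dlk1+Sca1+, 2 of 5 and 3 of 6 had positive differences, the reverse of Tek and Kcnj8. The medians there were -0.11 and -0.06, beside -0.44 for leukocyte markers, and pericyte differences ran from -1.62 to 0.81. In Dlk1+Sca1+ minus Dlk1+Sca1-, 3 of 5 and 2 of 6 were positive, with medians of 0.14 and -0.34. In Dlk1+Sca1+ minus Dlk1-Sca1+ the pericyte median was 0.32 and the leukocyte median 0.41. The part of these markers in the low Snord61 was not tested.

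Calls were few among the members and among all genes. In each comparison with a called member, the share of the 47 called was above that of all genes, but it rested on 1 or 2 genes. In CD26+ minus Dlk1+Sca1- 1 of 47 was called, Snord42b, where 1.1% of all genes were. In CD26+ minus Dlk1+Sca1+ 2 were called, Snord42b and Snord61, beside 3.72% of all genes. In CD26+ minus Dlk1-Sca1+ it was Snord42b alone, beside 0.0857%, and in Dlk1+Sca1+ minus Dlk1-Sca1+ Snord61 alone, beside 1.19%. None was called by limma in Dlk1+Sca1+ minus Dlk1+Sca1- (all genes 1.24%) or in Dlk1-Sca1+ minus Dlk1+Sca1- (0.591%). Thus 2 of the 47 genes differed between populations by this threshold in 5 of 282 tests, and 45 did not.

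At an unadjusted p below 0.05 the share of members was below that of all genes in some comparisons and above it in others. In the comparisons of CD26+ with Dlk1+Sca1-, Dlk1+Sca1+ and Dlk1-Sca1+ they numbered 3 (6.38%, all genes 12.6%), 6 (12.8%, all genes 14.7%) and 5 (10.6%, all genes 5.52%). In Dlk1+Sca1+ minus Dlk1+Sca1- they numbered 7 (14.9%, all genes 11.6%), in Dlk1-Sca1+ minus Dlk1+Sca1- 6 (12.8%, all genes 12.4%) and in Dlk1+Sca1+ minus Dlk1-Sca1+ 5 (10.6%, all genes 11%). The 6 comparisons share arrays and are not independent counts.

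The middle of the family shifted by 0.22 at most, in CD26+ minus Dlk1+Sca1+, where the upper quartile of all genes was 0.18. The median difference over the 47 genes was 0.10, 0.22 and 0.08 for CD26+ minus Dlk1+Sca1-, Dlk1+Sca1+ and Dlk1-Sca1+, and the medians of all genes lay between -0.01 and 0.01. It was -0.16 for Dlk1+Sca1+ minus Dlk1+Sca1-, -0.07 for Dlk1-Sca1+ minus Dlk1+Sca1- and -0.09 for Dlk1+Sca1+ minus Dlk1-Sca1+. In the first of these 14 of 47 members had a positive difference, against 50.0% of all genes, whose lower quartile was -0.16. In CD26+ minus Dlk1+Sca1+ 35 of 47 members had a positive difference, against 49.1% of all genes, and the 26 H/ACA box snoRNA genes (Snora), which guide pseudouridine formation, had a median of 0.25 with 2 called higher, whereas the 472 microRNA genes had a median of -0.05. Dlk1+Sca1+ gave the lowest mean of the 4 populations for 21 members and the highest for 6. Dlk1-Sca1+ gave the lowest for 15 and CD26+ the highest for 17. The same counts were not made over all genes, so these have no background beside them. The array with the lowest members was Dlk1+Sca1+ replicate 3, where the median member stood 0.31 below its own mean over the 12 arrays. The SD of that median between arrays of 1 population was 0.14.

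**Figure D2:**
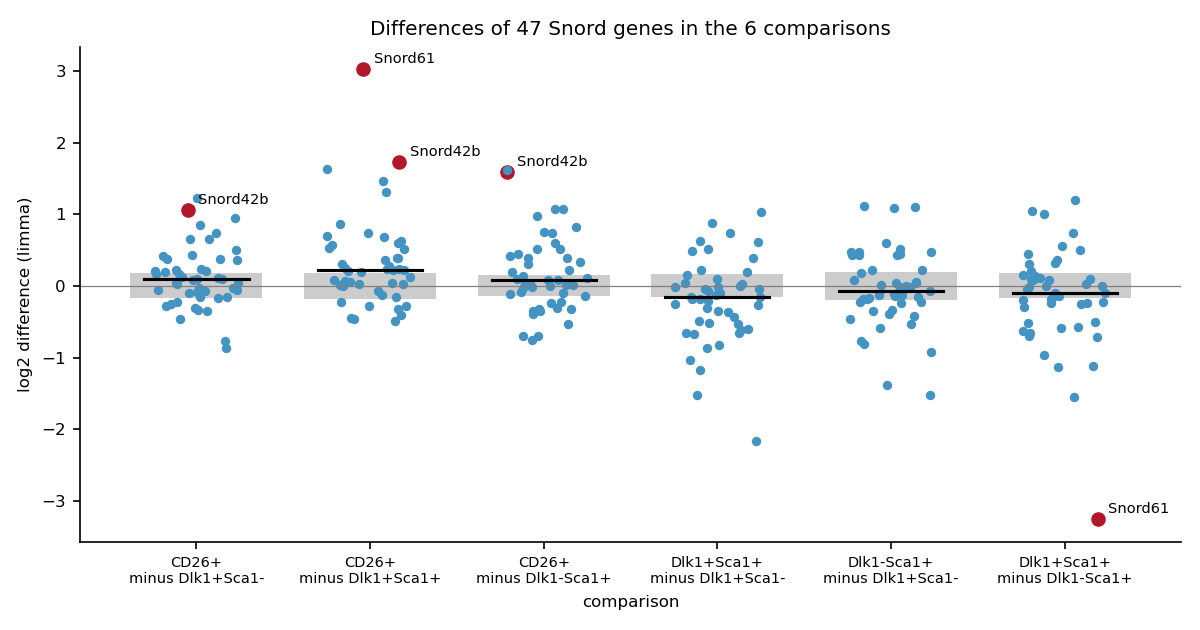
Log2 difference of each of the 47 Snord genes (vertical axis) in the 6 comparisons (horizontal axis). Red points are called at an adjusted p of 0.05, black bars are the medians of the 47 and grey bands the interquartile range of all 22180 genes, and the medians of the 47 run from -0.16 to 0.22 while single members reach 3.02 and -3.25.

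Members that missed the threshold but headed a comparison were named by size. Snord99 (56 bases, chromosome 4, within the long noncoding RNA Snhg12) measured 6.25, 5.62 and 6.60 in CD26+, 6.02, 5.12 and 7.02 in Dlk1+Sca1-, 4.89, 4.62 and 4.07 in Dlk1+Sca1+, and 4.90 and 4.18 in Dlk1-Sca1+. Both Sca1+ populations lay below CD26+ and Dlk1+Sca1- on every fitted array, and the array left out, at 5.33, lay above the lowest Dlk1+Sca1- array. CD26+ minus Dlk1+Sca1+ was 1.63 ± 0.43 (adjusted p = 0.0666). It was called in 2 of 11 fits without 1 more array (0.0186 and 0.0137, without Dlk1+Sca1- replicate 2 or 3) and when only those 2 populations were fitted (0.0118). Without CD26+ replicate 1 or 3 or Dlk1+Sca1+ replicate 3 its adjusted p was 0.208, 0.215 and 0.222. Snhg12 measured 8.26, 8.62 and 8.47 in CD26+ and 8.16, 8.10 and 8.10 in Dlk1+Sca1+, a difference of 0.32 ± 0.15 (adjusted p = 0.333). Over the 12 arrays r between Snord99 and Snhg12 was 0.51, but for the deviations within populations it was -0.12.

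Snord69 (59 bases, chromosome 14), within Gnl3, the gene of the nucleolar GTP-binding protein nucleostemin, was the only member whose Dlk1-Sca1+ values, 7.41 and 7.44, stood above all other fitted arrays, 2.13% of members beside 1.92% of all genes. The other 9 fitted values ran from 5.69 to 7.19, and the array left out measured 6.82. Its difference from Dlk1+Sca1- was 1.11 ± 0.34 (adjusted p = 0.202) and that of Dlk1+Sca1+ from Dlk1-Sca1+ -1.12 ± 0.34 (adjusted p = 0.186). Snord71, within the clathrin adaptor gene Ap1g1, measured 8.53, 8.35 and 8.59 in Dlk1+Sca1+ and 7.80, 7.39 and 8.04 in Dlk1+Sca1-, without overlap (0.74 ± 0.19, adjusted p = 0.0974, called in 1 of 11 fits without 1 more array, 0.0439 without Dlk1+Sca1- replicate 3, with 0.251 the highest).

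Other members with differences of this size were more scattered. Snord111, within Sf3b3, differed between CD26+ and Dlk1+Sca1+ by 1.30 ± 0.58 (adjusted p = 0.329). Snord91a, within Tsr1, was 3.23 and 3.09 in Dlk1-Sca1+ and 3.93, 4.72 and 4.95 in Dlk1+Sca1-, a difference of -1.38 ± 0.54 (adjusted p = 0.334). Snord92, within Wdr43, led by size in CD26+ minus Dlk1+Sca1- (1.23 ± 0.91, adjusted p = 0.647), with 4.65, 6.93 and 5.46 against 3.12, 5.88 and 4.38, so the groups overlapped widely.

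Snord53, also within Wdr43, was higher on average in CD26+ (6.95, 8.37 and 7.74) and Dlk1+Sca1- (7.97, 7.59 and 7.36) than in Dlk1+Sca1+ (7.09, 6.28 and 7.08) and Dlk1-Sca1+ (7.15 and 6.28). The CD26+ values overlapped those of both Sca1+ populations. Snord53 measured 7.73 on the Dlk1-Sca1+ array left out. Its differences had unadjusted p below 0.05 in 4 comparisons, among them Dlk1-Sca1+ minus Dlk1+Sca1- (-0.93 ± 0.40, adjusted p = 0.37), and none was called. Between the 2 Sca1+ populations Snord89 (1.20 ± 0.53, adjusted p = 0.438), Snord123 (1.05 ± 0.54, adjusted p = 0.528) and Snord17 (1.00 ± 0.35, adjusted p = 0.272) gave the largest positive differences. Snord87 (-1.13 ± 0.61, adjusted p = 0.56) and Snord35b (-1.55 ± 0.71, adjusted p = 0.47) stood on the negative side of the same comparison, Dlk1+Sca1+ minus Dlk1-Sca1+. Snord58b, within Rpl17, differed by 1.09 ± 0.42 in Dlk1-Sca1+ minus Dlk1+Sca1- (adjusted p = 0.31), Snord88a by 0.88 ± 0.54 in Dlk1+Sca1+ minus Dlk1+Sca1- (adjusted p = 0.602) and Snord15a by -0.70 ± 0.67 in CD26+ minus Dlk1-Sca1+ (adjusted p = 0.998). Without replicate 1 of Dlk1-Sca1+ the Snord15a difference was 0.62, and without replicate 2 it was -2.02. The remaining 27 members had differences between -0.96 (Snord19) and 0.82 (Snord16a) over the 6 comparisons, and their lowest adjusted p was 0.315.

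The 2 members measured here that have transcription units of their own behaved as follows. Snord118 is the U8 RNA, needed to process the 5.8S and 28S ribosomal RNAs, and measured 8.29, 7.95 and 7.72 in CD26+ and 8.38, 8.68 and 8.38 in Dlk1+Sca1+ (difference -0.49 ± 0.25, adjusted p = 0.392). Snord13 is the U13 RNA, which acts on the 18S ribosomal RNA, and measured 7.99, 7.58 and 7.45 in CD26+ and 8.07, 8.86 and 8.41 in Dlk1+Sca1- (difference -0.77 ± 0.33, adjusted p = 0.351). Both were lowest on average in CD26+, where Snord42b was highest, and neither was called in any comparison.

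**Figure D3:**
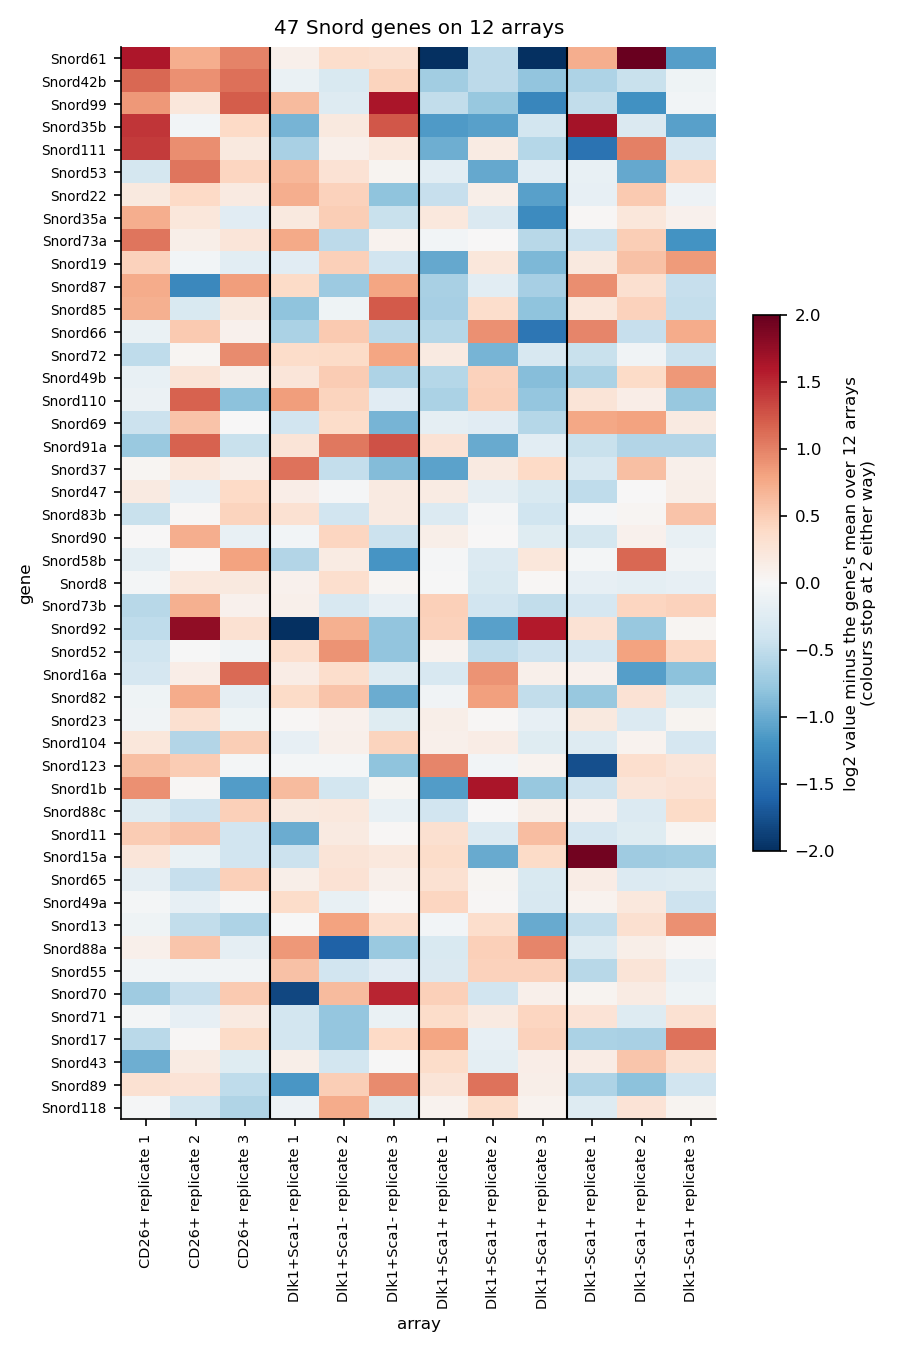
Deviation of each Snord gene (rows) from its own mean over the 12 arrays (columns, grouped by population and divided by black lines), in log2 units, ordered by CD26+ minus Dlk1+Sca1+. Snord61 and Snord42b head the order and are red in CD26+ and blue in Dlk1+Sca1+, and most of the 47 rows vary as much within a population as between populations.

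The spread between arrays of 1 population was wider for these genes than for most. The SD within populations had a median of 0.54 over the 47 members, 0.46 over the Snora genes, 0.36 over microRNA genes, and 0.23 over all genes. Of the 47, 46 were above the median of all genes in their own 1-unit range of level, and 40 above its upper quartile. Snord92 (1.23), Snord1b (1.02) and Snord70 (1.02) were the most scattered, and Snord8 (0.15), Snord23 (0.21) and Snord42b (0.24) the least. Snord61 (0.83) was among the most scattered. Between 4.26% and 12.8% of members differed by at least 1 in a comparison, against 0.654% to 2.44% of all genes.

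**Figure D4:**
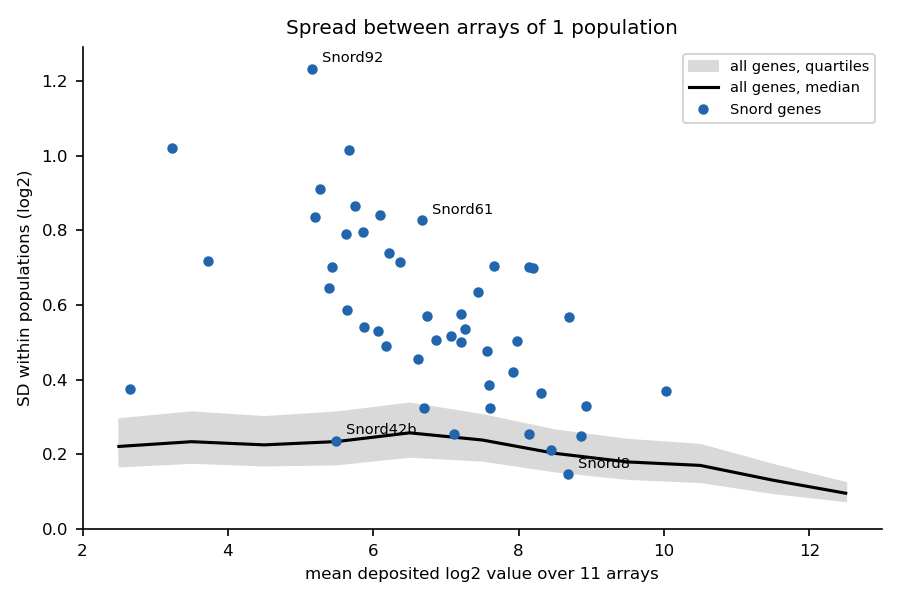
SD within populations (vertical axis, log2 units, 11 arrays) against mean deposited log2 value (horizontal axis) for the 47 Snord genes (points), with the median and interquartile range of all genes in 1-unit ranges of level. All but 1 of the points lie above the median line for their range, and Snord42b, at 0.24, is close to it.

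Host genes were less scattered between arrays of 1 population than the RNAs they carry. For 35 members the host had a probe set of its own, 27 hosts in all, and the SD within populations was larger for the snoRNA than for the host in 33 of the 35 pairs (host median 0.20). The pairs were not matched for level: the median level was 8.82 for these hosts and 6.74 for the Snord genes. The median SD of all genes was 0.26 at levels of 6 to 7 and 0.20 at 8 to 9. Rpl3, a large-subunit protein gene carrying Snord43 and Snord83b, was the only host called in any comparison, higher in CD26+ than in Dlk1+Sca1+ by 0.78 ± 0.17 (11.004, 11.36 and 11.23 against 10.55, 10.36 and 10.32, adjusted p = 0.0199). That value fell to 0.09 (adjusted p = 0.866) when the gene's probe sets were averaged, and the call was also lost without CD26+ replicate 2 (0.0884) or 3 (0.0722) or Dlk1+Sca1+ replicate 2 (0.0667) or 3 (0.0824). In the same comparison Snord43 went the other way (-0.45 ± 0.26, adjusted p = 0.495) and Snord83b the same way as Rpl3 (0.24 ± 0.23, adjusted p = 0.73), neither called. The signs of snoRNA and host differences matched in 13 to 21 of the 35 pairs, depending on the comparison.

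Across arrays the link between snoRNA and host differed from pair to pair. Pearson's r over the 12 arrays had a median of 0.23 over the 35 pairs and ran from -0.42 (Snord16a and Rpl4) to 0.84 (Snord110 and Nop56), above 0 in 26. For deviations within populations the median was 0.27 and 22 of 35 were above 0. For 1072 pairs of members with different hosts or none the median over the 12 arrays was 0.02. The 9 pairs of members in 1 host had a median of 0.32 with a range of -0.21 (Snord49a and Snord49b) to 0.52 (Snord19 and Snord69). All these values share the same 12 arrays, and hosts recur, so they describe the arrays and were not tested.

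Snord110 and its host Nop56, which encodes a core protein of the C/D box complex itself, were the closest pair. Snord110 measured 6.17, 7.47 and 5.48 in CD26+ and Nop56 9.32, 9.69 and 9.14, and in Dlk1+Sca1+ they measured 5.67, 6.78 and 5.52, and 8.98, 9.56 and 9.07. In both populations the second replicate was the highest for both genes. In Dlk1+Sca1- Snord110 measured 7.13, 6.75 and 6.07 and Nop56 9.36, 9.68 and 9.28, highest on different replicates, and in Dlk1-Sca1+ they went opposite ways (6.55 and 6.42, and 9.20 and 9.29). Over the 11 fitted arrays r for deviations within populations was 0.83. Neither gene was called in any comparison: the largest difference of Snord110 was -0.66 ± 0.48 (Dlk1+Sca1+ minus Dlk1+Sca1-, adjusted p = 0.679). Snord11 and Snord70, both within Nop58, another core protein gene, had r of 0.74 and 0.69 with it within populations, and 0.46 with each other.

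**Figure D5:**
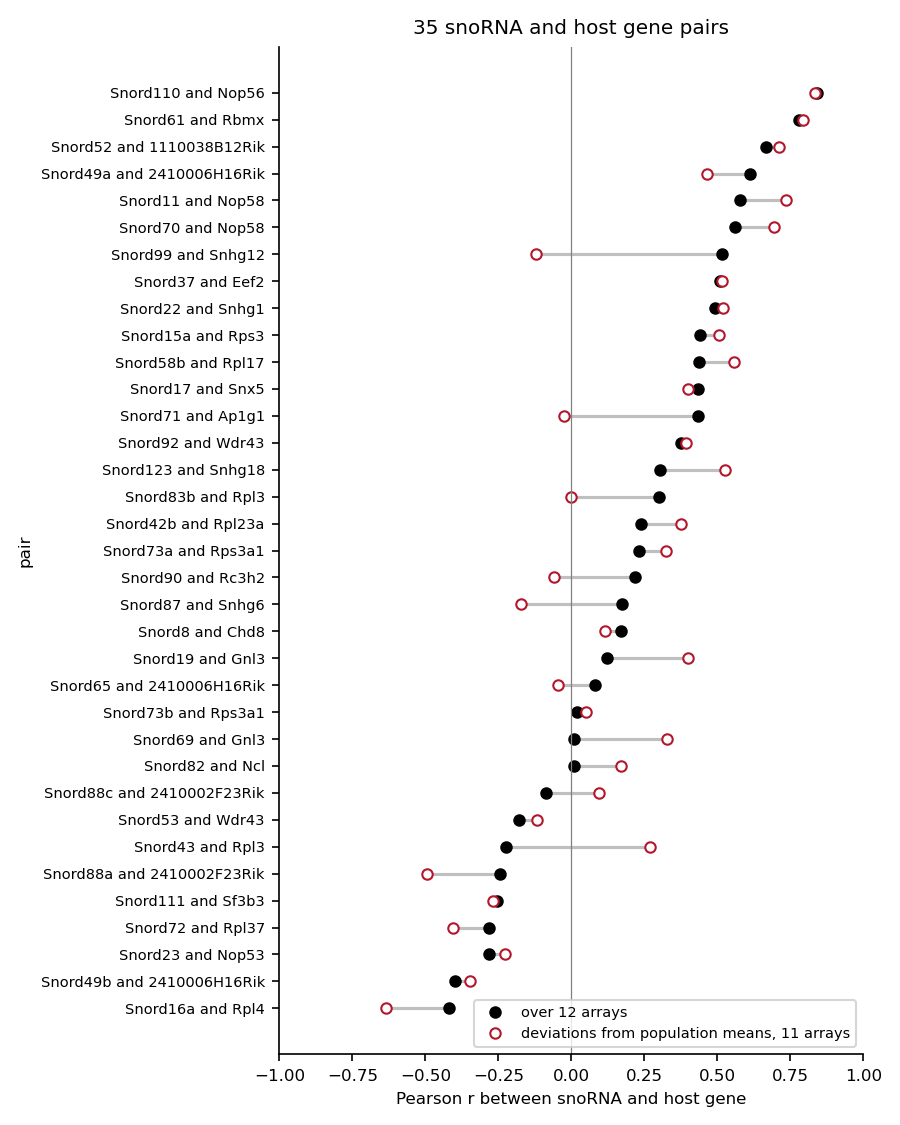
Pearson's r between each snoRNA and its host (35 pairs, rows) over the 12 arrays (black) and for deviations from the population means on 11 arrays (open red). Values run from -0.42 to 0.84 over the 12 arrays, and Snord99 with Snhg12 falls from 0.51 to -0.12 when population means are removed.

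The proteins that carry and assemble these RNAs gave no calls. Of the 5 symbols listed for core proteins, Nop56, Nop58 and Snu13 were measured, and 0 of 3 was called by limma in any comparison, with 1 passing at an unadjusted p below 0.05 (Snu13, Dlk1-Sca1+ minus Dlk1+Sca1-). None of 17 assembly and maturation genes and none of 9 genes for ribosomal RNA synthesis was called either, with at most 1 and 2 at an unadjusted p below 0.05 in a comparison. Among the 4 proteins of the related H/ACA complex, Nop10 was higher in Dlk1+Sca1+ (8.94, 8.85 and 8.97) than in Dlk1+Sca1- (7.75, 7.74 and 8.33) by 0.98 ± 0.19 (adjusted p = 0.0279, lost in 5 of 11 fits without 1 more array, with values of 0.88 to 1.18). From Dlk1+Sca1- to Dlk1-Sca1+ all 4 had positive differences with unadjusted p below 0.05, none of them called, with a median difference of 0.81.

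Of the long noncoding hosts, Snhg14 stood out, the imprinted transcript that carries the Snord115 and Snord116 arrays and is best known from neurons. It measured 4.65, 5.90 and 5.72 in Dlk1+Sca1-, and between 3.41 and 4.02 on the 8 fitted arrays of the other populations, but 5.28 on the Dlk1-Sca1+ array left out. It was lower in CD26+ than in Dlk1+Sca1- by -1.67 ± 0.28 (adjusted p = 0.0125), in Dlk1+Sca1+ by -1.68 ± 0.28 (adjusted p = 0.0108) and in Dlk1-Sca1+ by -1.89 ± 0.31 (adjusted p = 0.0187). With all 12 arrays none of the 3 was called (adjusted p = 0.131, 0.117 and 0.263). None was called either when only the 2 populations compared were fitted. The calls held in 10, 10 and 9 of 11 fits without 1 more array. On the 8 fitted arrays outside Dlk1+Sca1- Snhg14 was dim, below every array median (5.38 to 5.51). Snhg1, Snhg5, Snhg6 and Snhg12 were not called in any comparison. In the imprinted Dlk1 region, whose noncoding RNA Rian carries another snoRNA array, Rian levels in Dlk1+Sca1+ exceeded those in CD26+ (CD26+ minus Dlk1+Sca1+ -0.39 ± 0.10, adjusted p = 0.0395) and in Dlk1-Sca1+ (0.50 ± 0.11, adjusted p = 0.0409), calls that held in 3 and 2 of 11 fits without 1 more array. Dlk1 itself, a sort marker, was higher there by 1.93 ± 0.14 than in Dlk1-Sca1+.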

How the data were processed

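RNA of sorted fibroblasts was labelled and hybridised to Affymetrix Mouse Gene 2.0 ST arrays. The authors deposited log2 values, 1 per probe set and array. Their summarisation and normalisation were not given in the sources used here. The submitters' processing notes list the build mm10. Array medians were alike (5.38 to 5.51), so the values were used as they stood. Of 41345 probe sets, 23521 named 1 gene, and for genes with several the highest mean was kept. The number of arrays limits the precision. Hosts were taken as the smallest annotated gene whose span holds the snoRNA, leaving out predicted genes and small RNA genes. A host from a list made by hand was preferred where it was among these spans. The model was limma 3.58.1 (R 4.3.3) with 1 mean per population, eBayes with mean trend and robust fitting, two-sided, 7 residual degrees of freedom, and Benjamini-Hochberg adjustment over 22180 genes within each comparison. The procedure was tested on simulated data. Replicate numbers were not shown to pair the samples. Named were Snord42b, each called member, the 3 largest rises and falls per comparison, their hosts and 5 genes most like Snord42b. Snord110 with Nop56, Snord11 and Snord70 with Nop58, and the extremes of spread and correlation were named after their values were seen. Members, lists and tests were chosen with earlier results of these data known.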

Additional observations from a re-analysis of the deposited data

How the results depend on the processing

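In all, 19 alternatives were tried. With all 12 arrays the Snord genes called fell from 2 to 1 in CD26+ minus Dlk1+Sca1+ and from 1 to 0 in Dlk1+Sca1+ minus Dlk1-Sca1+. With the replicate number as a block they went from 0 to 1 in Dlk1+Sca1+ minus Dlk1+Sca1- and from 1 to 0 in Dlk1+Sca1+ minus Dlk1-Sca1+. The block called Snord71 in the former (adjusted p = 0.0281) and Snord99 in CD26+ minus Dlk1+Sca1+ (0.03). Deviations from the population means correlated at -0.05 to 0.14 between same-numbered arrays of different populations (median 0.045). Between arrays of different numbers they correlated at -0.14 to 0.09 (median -0.032). The labels do not say what a number shares, and pairing was not tested. With only the 2 populations compared they fell from 1 to 0 in CD26+ minus Dlk1+Sca1- and in Dlk1+Sca1+ minus Dlk1-Sca1+. Leaving out 1 more array gave 1 to 3 in CD26+ minus Dlk1+Sca1+, 0 in all 11 fits for Dlk1-Sca1+ minus Dlk1+Sca1-, and 0 to 1 in the other 4 comparisons. The cause was not tested.

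The median difference over the Snord genes then ranged from 0.14 to 0.31 for CD26+ minus Dlk1+Sca1+, 0.05 to 0.17 for CD26+ minus Dlk1+Sca1-, -0.017 to 0.29 for CD26+ minus Dlk1-Sca1+, -0.24 to -0.10 for Dlk1+Sca1+ minus Dlk1+Sca1-, -0.17 to 0.04 for Dlk1+Sca1+ minus Dlk1-Sca1+, and -0.21 to 0.10 for Dlk1-Sca1+ minus Dlk1+Sca1-. Where Dlk1-Sca1+ kept 1 array, that array was assumed to vary like the other populations. No member difference with an unadjusted p below 0.05, and no called host, changed sign. Of the other differences that the naming rule gave, 2 did, both in CD26+ minus Dlk1-Sca1+ without Dlk1-Sca1+ replicate 1. Over the fits that left out an array, Snord15a ranged from -2.02 to 0.62 and Snord111 from -0.16 to 2.31. Signal over background was not analysed here, and dim probe sets understate differences.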
